A study of Mus musculus with 6 samples.

Results

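Among the 25239 genes counted in splenic CD4 T cells, 190 genes (0.753%) had transcript levels that stepped upward with the number of Ikzf3 N159S alleles. They were chosen on CPM, the counts of a gene scaled to the same total of reads on genes in every library, by 3 conditions. The lower of the 2 Ikzf3 N159S/N159S libraries had to reach 2 CPM, it had to lie at least 1.7-fold above the higher of the 2 Ikzf3 +/+ libraries, and the mean of the 2 Ikzf3 +/N159S libraries had to lie strictly between the means of the other genotypes. Grb7, Cxcr1, Gzma and H2-Q10 were left out of the set by name. Because these values of all 3 genotypes chose the genes, the differences between genotypes given here for the members are a description and carry no test of the choice.

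Ikzf3 encodes Aiolos, a zinc finger transcription factor of the Ikaros family. Proteins of this family bind DNA through N-terminal zinc fingers and form homodimers and heterodimers through C-terminal zinc fingers. Through the complexes they recruit, they are known both to repress and to activate genes in developing and mature lymphocytes. The N159S change replaces an asparagine of the DNA-binding region of mouse Aiolos with a serine.

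The study asked which genes are misregulated by this variant, and sequenced poly(A) RNA from sorted TCRβ+CD4+CD44-CD127+ spleen cells of C57BL/6 mice that carried 0, 1 or 2 copies of a CRISPR/Cas9 knock-in allele. CD127, the interleukin 7 receptor alpha chain, took the place of CD62L in the sort. The groups were Ikzf3 +/+, Ikzf3 +/N159S and Ikzf3 N159S/N159S, with 2 libraries each, and the ages of these mice are not given in the sources used here. The allele is in the germline and so in every cell of the mouse, not in T cells alone.

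The libraries held between 11696461 and 17317260 reads on genes. Markers of naive CD4 T cells summed to 7563 and 6997 CPM in +/+, 6640 and 6659 CPM in +/N159S, and 6272 and 6691 CPM in N159S/N159S libraries, so that both +/+ libraries lay above the others. Of the 10 tested, Lef1 was lower in N159S/N159S (FDR = 0.0391) and Il7r, the gene of CD127, lower in +/N159S (FDR = 0.0368), where FDR is the Benjamini-Hochberg false discovery rate of edgeR's quasi-likelihood test. Cd4 itself was at 699 to 973 CPM. B cell markers summed to 165 and 242 CPM in +/+, to 396 and 660 CPM in +/N159S, and to 158 and 107 CPM in N159S/N159S libraries. At an FDR under 0.05 in that edgeR test, 5 of the 11 B cell markers were higher and 1, Fcer2a, was lower in +/N159S than in +/+ (log2 fold change -2.76, FDR = 0.00594), and 4 were lower in N159S/N159S, beside 1.15% of genes tested called higher in +/N159S and 5.26% called in either direction in N159S/N159S. The libraries also split by sex in a way that followed genotype. Xist, the RNA of the inactive X chromosome, was at 737 and 846 CPM in the +/N159S libraries and at 0.770 to 1.96 CPM in the other 4, whereas Ddx3y, on chromosome Y, was at 1.07 and 1.12 CPM in +/N159S and at 262 to 307 CPM in the other 4. Sex and the +/N159S genotype therefore cannot be told apart in these data, which touches every +/N159S value below, while the +/+ and N159S/N159S libraries carried the same male transcripts. In bulk RNA fewer cells of a type and less RNA per cell cannot be told apart.

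Ikzf3 was at 156 and 151 CPM in +/+, at 169 and 156 CPM in +/N159S, and at 196 and 201 CPM in N159S/N159S libraries, a log2 fold change of 0.36 against +/+ (standard error 0.093, FDR = 0.049 by edgeR's quasi-likelihood test). These gene counts do not separate the alleles, so they do not check the genotype labels.

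Promoter windows are shown for members whose start regions bear on the set. RefSeq windows of 300 bases (GRCm38.p6, the mm10 assembly) running from 250 bases before a start site to 50 after it were found for 139 of the 190 members. Bivm and Poglut2 are transcribed away from each other from starts 149 bp apart, and so are Cep290 and Tmtc3 from starts 208 bp apart, which makes them the closest pairs of divergent members. One window is shown for each pair because 283 and 266 of the bases, respectively, are also in the partner's window. Pcsk1 and Ier5l are shown as members with large differences between genotypes. The Pcsk1 window belongs to a start site inside the gene, which begins at chr13:75089420 in RefSeq, so its letters do not lie upstream of the whole gene. Capitals mark GGGAA and its reverse complement TTCCC, the core letters bound by Ikaros family proteins.

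Bivm, chr1:44118707-44119006, plus strand: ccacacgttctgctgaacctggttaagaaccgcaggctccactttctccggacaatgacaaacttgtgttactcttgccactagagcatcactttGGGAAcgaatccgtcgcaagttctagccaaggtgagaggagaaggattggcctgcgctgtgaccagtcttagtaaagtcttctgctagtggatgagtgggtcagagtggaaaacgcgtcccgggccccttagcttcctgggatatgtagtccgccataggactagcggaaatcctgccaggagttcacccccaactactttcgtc

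Cep290, chr10:100487332-100487631, plus strand: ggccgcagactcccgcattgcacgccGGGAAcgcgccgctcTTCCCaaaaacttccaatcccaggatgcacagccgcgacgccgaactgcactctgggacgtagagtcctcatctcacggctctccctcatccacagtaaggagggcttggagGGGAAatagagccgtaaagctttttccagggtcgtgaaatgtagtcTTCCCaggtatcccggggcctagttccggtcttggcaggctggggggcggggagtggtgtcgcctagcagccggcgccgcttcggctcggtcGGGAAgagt

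Pcsk1, chr13:75089607-75089906, plus strand: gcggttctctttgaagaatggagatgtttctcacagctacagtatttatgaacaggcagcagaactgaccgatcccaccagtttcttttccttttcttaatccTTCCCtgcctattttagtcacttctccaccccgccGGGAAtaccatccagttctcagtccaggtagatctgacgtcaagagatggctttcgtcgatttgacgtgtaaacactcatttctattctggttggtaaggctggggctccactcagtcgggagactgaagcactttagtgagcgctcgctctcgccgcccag

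Ier5l, chr2:30474150-30474449, minus strand: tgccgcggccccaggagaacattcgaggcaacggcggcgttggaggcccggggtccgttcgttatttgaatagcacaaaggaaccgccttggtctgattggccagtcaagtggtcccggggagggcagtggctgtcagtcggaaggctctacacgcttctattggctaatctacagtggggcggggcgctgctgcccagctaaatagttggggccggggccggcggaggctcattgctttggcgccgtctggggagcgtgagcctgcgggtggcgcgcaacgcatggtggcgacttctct

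The core letters occur once in the Bivm window, 5 times in the Cep290 window, 2 times in the Pcsk1 window and 0 times in the Ier5l window. Over all members with a window, 104 of 139 (74.8%) held GGGAA on either strand, beside 64.2% of 9631 tested genes and 62.4% of all 27024 genes with a window. The longer TGGGAA, which contains GGGAA, was in 30.2% of the member windows, 22.7% of those of tested genes and 25.5% of all. The AP-1 motif TGACTCA was in 7.19% of the member windows, 3.23% of those of tested genes and 5.17% of all. The E-box CACGTG was in 10.1%, 10.4% and 7.24%, the TATA box TATAAA in 5.04%, 6.74% and 14.2%, and the GC box GGGCGG in 56.8%, 63.8% and 35.9% of the same 3 sets, each searched on both strands. The member windows held a median of 13 CpG dinucleotides, beside 21 in the windows of tested genes and 7 in all windows. A match is a description of letters, not of binding, and these shares were not tested.

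The 190 members together took 1359 and 1426 CPM in +/+, 2544 and 2749 CPM in +/N159S, and 3848 and 3833 CPM in N159S/N159S libraries. All 190 passed the filter on low counts, which the floor of the rule made likely. The fold of the N159S/N159S mean over the +/+ mean ran from 1.77 to 34.8 with a median of 2.63, and was 5 or more in 31 members and under 2.5 in 85. Of the members, 158 were called higher in N159S/N159S than in +/+ (FDR under 0.05, edgeR's quasi-likelihood test), beside 3.14% of the 12117 genes tested, but the rule used this contrast and nothing is read from the count. The same test called 49 members higher in +/N159S than in +/+, beside 1.15% of genes tested, in a comparison that shares the +/+ libraries and that the rule also used.

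**Figure D1:**
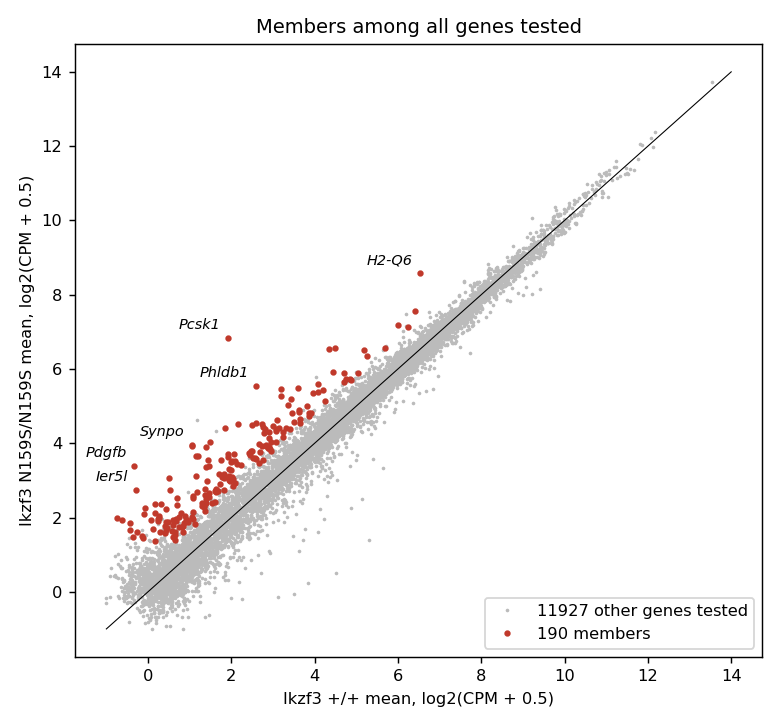
Mean level of each tested gene in Ikzf3 +/+ (horizontal axis) and Ikzf3 N159S/N159S libraries (vertical axis), both as log2(CPM + 0.5) over 2 libraries, with the 190 members in red, 11927 other genes in grey and a line of equality. The members lie above the line by construction, mostly at low and middle levels, and Pcsk1 and H2-Q6 stand apart.

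Many members had few reads. Their average level over all libraries had a median of 2.67 on edgeR's log2 CPM scale, beside 4.84 over the genes tested, and 61 had an N159S/N159S mean under 5 CPM. In the +/+ libraries 14 members had fewer than 10 reads in both, so their folds rest on few reads. Per kilobase of exon, the highest mean level in N159S/N159S libraries was that of H2-Q6, at 183.5 CPM per kilobase, followed by the non-coding RNA AW112010 at 73.2. Exon length had a median of 4684 bp over 189 members and of 4371 bp over 12031 tested genes.

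Members were placed in functional classes by hand from their gene names alone. Over all 190 members, 138 had the 3 genotypes stepwise without overlap of any library, beside 3.87% of genes tested. The rule partly fixes that count, and the counts per class below were not tested against it. Where +/N159S is said below to lie near a genotype or the middle, CPM is meant, and the log2 scale can differ. Of the 9 members that encode secreted ligands or act in their processing or release, 8 were stepwise in this way. Pcsk1 encodes proprotein convertase 1/3, which cleaves prohormones in the secretory granules of endocrine and neuroendocrine cells. It was at 3.85 and 2.70 CPM in +/+, at 9.94 and 19.5 CPM in +/N159S, and at 106 and 119 CPM in N159S/N159S libraries, from 45 and 41 reads in the +/+ pair. The groups did not overlap, and the +/N159S values lay much nearer to +/+ in CPM. As folds of means the steps were less unlike, with +/N159S at 4.50 times +/+ and N159S/N159S at 7.66 times +/N159S. Pdgfb, the B chain of platelet-derived growth factor, was at 0 and 0.593 CPM in +/+, at 2.02 and 1.45 CPM in +/N159S, and at 8.78 and 11.3 CPM in N159S/N159S libraries. Its +/+ values came from 0 and 9 reads. Pros1, which encodes the anticoagulant protein S and is a ligand of the TAM receptors, was at 0.855 and 0.988 CPM, at 5.30 and 5.35 CPM, and at 7.57 and 8.16 CPM in the same order of genotypes, so that its +/N159S libraries lay nearer to N159S/N159S.

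Wls, the carrier of Wnt proteins to the cell surface, was at 9.23 and 8.10 CPM in +/+, 32.0 and 26.5 CPM in +/N159S, and 39.6 and 47.1 CPM in N159S/N159S libraries. Lgals1, encoding the beta-galactoside binding lectin galectin-1, had the smallest fold of the 190, at 29.6 and 28.5, 49.7 and 36.3, and 50.5 and 52.1 CPM. Its +/N159S replicate 1 lay just under the N159S/N159S libraries. Lif, a cytokine of the interleukin 6 family, and Btc, a ligand of the epidermal growth factor receptor, stayed at or under 3.003 CPM in every library. Grn, the precursor of progranulin, was the exception to the stepwise order, with +/N159S replicate 1 at 19.4 CPM above N159S/N159S replicate 2 at 18.4 CPM. Insl3, a relaxin-like hormone, shares exon sequence and strand with Jak3, which was at 165 and 219 CPM in +/+ and at 342 and 322 CPM in N159S/N159S libraries, so its counts of 3.36 to 12.2 CPM are uncertain.

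The class of surface receptors of growth factors, cytokines and matrix had 9 members, 6 of them with fully separated libraries. It also holds Icosl, which encodes a surface ligand and not a receptor. Fgfr1, a receptor tyrosine kinase for fibroblast growth factors, was at 0.342 and 0.132 CPM in +/+, 1.01 and 1.59 CPM in +/N159S, and 2.37 and 2.99 CPM in N159S/N159S libraries. Acvr2b, a type II receptor of activins, was at 0.684 and 0.658, 0.834 and 1.06, and 3.12 and 3.35 CPM, with +/N159S close to +/+. Among receptors with more reads, Il18r1, through which interleukin 18 signals, was at 68.1 and 81.2 CPM, 118 and 122 CPM, and 139 and 141 CPM. Itga5, the alpha chain of the fibronectin receptor, was at 7.61 and 8.56, 14.8 and 17.0, and 23.2 and 24.9 CPM, evenly spaced. Axl, a TAM receptor tyrosine kinase, was at 4.10 and 5.99, 11.1 and 6.94, and 12.3 and 14.1 CPM, with its +/N159S libraries apart from each other.

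For Icosl, Plaur and Kremen2 the libraries of neighbouring genotypes overlapped. Icosl, the ligand of the costimulatory receptor ICOS and a gene that B cells also use, was at 25.4 and 30.9 CPM in +/N159S and at 36.3 and 27.5 CPM in N159S/N159S, above 8.98 and 10.7 CPM in +/+. The summed B cell markers were highest in +/N159S and lowest in N159S/N159S libraries, and their part in the +/N159S values was not tested.

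The actin and adhesion class was the largest, with 19 members, of which 15 were stepwise in all 6 libraries. Synpo encodes synaptopodin, an actin-associated protein of dendritic spines and kidney podocytes, and was at 1.62 and 1.51 CPM in +/+, 6.13 and 6.47 CPM in +/N159S, and 13.9 and 16.1 CPM in N159S/N159S libraries. Phldb1 was at 5.64 and 5.40, 19.4 and 11.2, and 48.5 and 43.6 CPM in the same order. Rhob, a small GTPase of endosomes and actin, was at 17.9 and 21.9, 36.4 and 56.7, and 83.4 and 101 CPM. In all 3 of these the genotypes were separate, and the +/N159S mean lay below the midpoint in CPM. On the log2 scale of the edgeR fit, the departure of +/N159S from the midpoint was 0.34 in Synpo, 0.07 in Rhob and -0.09 in Phldb1. The side of the midpoint thus depended on the scale in Synpo and Rhob.

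Gas2l1, a linker of actin and microtubules, had 3 reads in the +/+ pair and 105 in the N159S/N159S pair, a ratio of 30.3 in CPM. Its 95% exact binomial interval, from 10.1 to 149, covers counting error only. The gene was chosen by this same contrast, which the interval does not allow for, so it is no test of the difference. Among the more abundant members of the class, Inf2, a formin, was at 51.3 and 51.6, 70.9 and 68.97, and 95.6 and 91.4 CPM. Ctnna1, alpha-catenin of adherens junctions, was at 26.9 and 26.4, 38.3 and 41.0, and 52.2 and 53.6 CPM. Both had replicates close together and +/N159S near the middle. Arhgap21, Raph1, Nckap1 and Vangl2 were the members of the class whose libraries overlapped between neighbouring genotypes.

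Genes better known from neurons and regulated secretion made up 11 members, 7 of them fully stepwise. Baiap3 and Unc13a, related proteins of vesicle priming, were both in the set. Baiap3 was at 2.22 and 2.37 CPM in +/+, 7.86 and 7.66 CPM in +/N159S, and 16.0 and 15.9 CPM in N159S/N159S libraries. Unc13a was at 1.88 and 1.58, 3.57 and 3.04, and 10.1 and 14.1 CPM. Baiap3 thus had +/N159S nearer to the middle than Unc13a did. The potassium channel gene Kcnk6 was at 1.71 and 1.45, 5.002 and 6.41, and 14.7 and 14.9 CPM. Cacnb3, a subunit of voltage-gated calcium channels, was at 7.35 and 4.87, 8.75 and 9.78, and 19.2 and 25.4 CPM.

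Nlgn2, the neuroligin of inhibitory synapses, was at 8.55 and 10.2 CPM in N159S/N159S and at 2.96 to 4.82 CPM in the other 4 libraries. The class members Grin2d, Grik5 and Aplp1 were among those that overlapped between genotypes. The widest spread was in Aplp1, at 1.88 and 2.30, 3.99 and 0.991, and 4.10 and 4.01 CPM, where +/N159S replicate 2 lay below both +/+ libraries.

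Transcription and chromatin genes made up 16 members, 12 stepwise in all libraries. Gcm2, the regulator of parathyroid development, was at 0.342 and 0.132 CPM in +/+, 0.953 and 0.727 CPM in +/N159S, and 2.94 and 3.28 CPM in N159S/N159S libraries. Zfp704, a zinc finger protein, was at 0.513 and 0.395, 1.13 and 2.58, and 4.62 and 3.86 CPM. Both had few reads in +/+ and no overlap between genotypes. Rarg, a retinoic acid receptor, was at 33.3 and 41.7, 59.2 and 64.6, and 87.4 and 76.1 CPM. Tfe3, a regulator of lysosomal genes on chromosome X, was at 23.9 and 27.3, 33.9 and 31.1, and 47.5 and 51.1 CPM, and was 1 of 5 X-linked members with Firre, Gpr34, Armcx1 and B630019K06Rik. Without chromosomes X and Y the rule gave 185 members. The linker histone genes H1f2 and H1f4 were at 38.2 and 33.3 CPM and at 3.35 and 2.99 CPM in N159S/N159S, against 7.87 and 12.6 CPM and 0.513 and 1.19 CPM in +/+.

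Genes of sterol and lipid handling were stepwise without overlap in 12 of 12 members, beside 138 of all 190 members, a difference not tested. Their folds were moderate, between 1.83 and 3.14. Sqle, squalene epoxidase of cholesterol synthesis, was at 24.9 and 26.3 CPM in +/+, 30.4 and 38.0 CPM in +/N159S, and 62.4 and 56.2 CPM in N159S/N159S libraries. Its +/N159S libraries lay closer to +/+. Stard10, a phospholipid transfer protein, lay near the middle at 7.01 and 7.18, 10.7 and 10.1, and 14.6 and 13.2 CPM. Abcg2, a multidrug efflux transporter, had the opposite spacing, at 7.78 and 10.2, 16.7 and 15.2, and 18.5 and 19.7 CPM.

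Of the 10 G protein signalling members, 9 were fully stepwise. Pde2a, a phosphodiesterase of cyclic nucleotides, was at 78.7 and 91.1 CPM in +/+, 138 and 161 CPM in +/N159S, and 213 and 167 CPM in N159S/N159S libraries, and N159S/N159S replicate 2 lay only just above +/N159S replicate 2. Rgs1, a regulator that shortens G protein signals at chemokine receptors, was at 20.5 and 21.8, 32.0 and 32.3, and 48.1 and 72.5 CPM. Ptgir, the prostacyclin receptor, was at 7.87 and 6.06, 11.97 and 12.8, and 17.4 and 21.1 CPM. S1pr2, a sphingosine 1-phosphate receptor, was at 6.33 and 6.32, 9.05 and 7.73, and 11.2 and 11.4 CPM.

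Of 7 genes of glycan addition, 4 were fully stepwise. Fut10, named as a fucosyltransferase, was at 0.171 and 0.132 CPM in +/+, 1.25 and 1.32 CPM in +/N159S, and 3.23 and 3.42 CPM in N159S/N159S libraries. Its +/+ pair held 4 reads, and the ratio of N159S/N159S to +/+ was 22.3. The 95% exact binomial interval, from 8.45 to 83.4, again covers counting error only and not the choice of the gene by this contrast. Poglut2, which adds glucose to protein domains, was at 3.33 and 3.23 CPM in +/+, at 9.78 CPM in +/N159S replicate 2, and at 11.8 and 13.6 CPM in N159S/N159S libraries, with its +/N159S libraries near the N159S/N159S level.

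Interferon response and innate sensing genes made up 11 members, 7 fully stepwise, with +/N159S mostly high. Oas1a, which makes 2′-5′ oligoadenylates on sensing double-stranded RNA, was at 5.47 and 5.66 CPM in +/+, 22.1 and 17.4 CPM in +/N159S, and 23.0 and 22.9 CPM in N159S/N159S libraries. Casp1 and Casp4, neighbouring genes of inflammatory caspases, were at 2.31 and 1.98 CPM and 0.599 and 0.658 CPM in +/+, at 7.15 and 9.25 CPM and 2.62 and 3.83 CPM in +/N159S, and at 9.18 and 10.4 CPM and 3.18 and 6.05 CPM in N159S/N159S libraries. In both, +/N159S replicate 2 exceeded N159S/N159S replicate 1. Alpk1, the cytosolic sensor of bacterial ADP-heptose, was the exception, with +/N159S at 1.01 and 1.39 CPM close to +/+ at 0.855 and 0.527 CPM.

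The 3 MHC region members had the highest median position of any class. H2-Q6, a non-classical class I gene, was at 87.0 and 97.2 CPM in +/+, 276 and 391 CPM in +/N159S, and 379 and 386 CPM in N159S/N159S libraries. H2-DMa, a chain of the peptide editor of class II molecules, was at 16.9 and 15.7, 36.7 and 41.2, and 45.6 and 36.8 CPM, so that the mutant genotypes overlapped. H2-Q5, a transcribed pseudogene in RefSeq, was at 31.2 and 40.5, 71.7 and 63.8, and 104 and 76.0 CPM. H2-Q5 and H2-Q6 belong to a family of near-identical genes, and reads that fit several places were dropped, so the level of each is uncertain. The same holds for Bcl2a1b and Bcl2a1d, which with Bcl2l2 were the 3 survival genes of the BCL2 family. Bcl2l2, which encodes the survival protein Bcl-w, was at 3.08 and 2.44, 5.66 and 5.75, and 8.14 and 9.03 CPM. Bcl2a1d was at 1.197 and 1.51, 3.16 and 3.83, and 3.003 and 4.30 CPM, with the mutant genotypes overlapping.

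The remaining classes were small or unassigned. Fanci and Fancd2, the partner proteins of interstrand crosslink repair, were both members, and 1 of the 2 was stepwise in all libraries. Fancd2 was at 1.197 and 0.922, 2.44 and 1.06, and 2.14 and 2.62 CPM, its +/N159S libraries overlapping both other genotypes. Fanci was at 11.2 and 13.0, 16.3 and 15.7, and 22.2 and 27.2 CPM, and its exons overlap those of Polg. Another 78 members were placed in no class, and 54 of these were stepwise in all 6 libraries. Ier5l, an immediate early response gene by name, was at 0.427 and 0.198 CPM in +/+, 1.19 and 2.64 CPM in +/N159S, and 5.95 and 6.41 CPM in N159S/N159S libraries, from 5 and 3 reads in the +/+ pair. Tbc1d30 was at 19.9 and 24.2, 48.5 and 46.3, and 95.6 and 93.3 CPM, and Lmna, encoding the nuclear lamins A and C, at 5.90 and 4.41, 7.26 and 9.12, and 20.1 and 23.5 CPM. Rragd, a GTPase that signals amino acids to mTORC1, was at 3.85 and 3.16, 6.43 and 8.13, and 8.72 and 12.9 CPM, near the middle. The other unplaced members had folds from 1.82 upward.

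**Figure D2:**
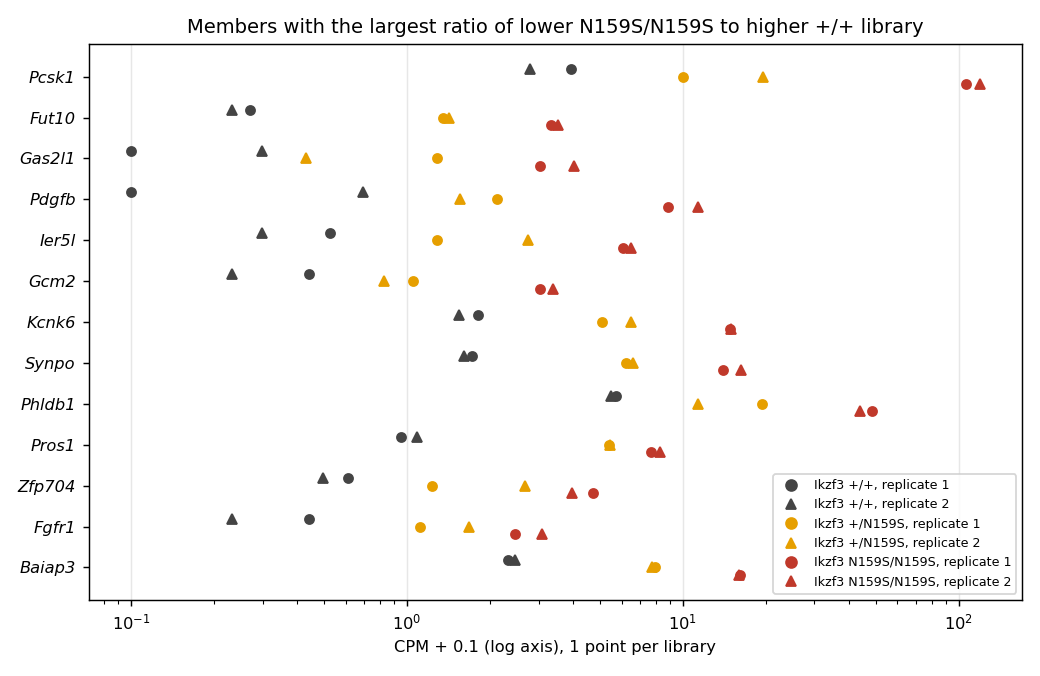
CPM plus 0.1 on a log axis for 13 of the 15 members with the largest ratio of the lower Ikzf3 N159S/N159S to the higher Ikzf3 +/+ library, 1 point per library, colour for genotype and shape for replicate number. The 3 genotypes are separate in each of the 13 rows, the largest ratio is that of Pcsk1 at 27.6, and the points at the left edge are libraries with 0 reads.

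**Figure D3:**
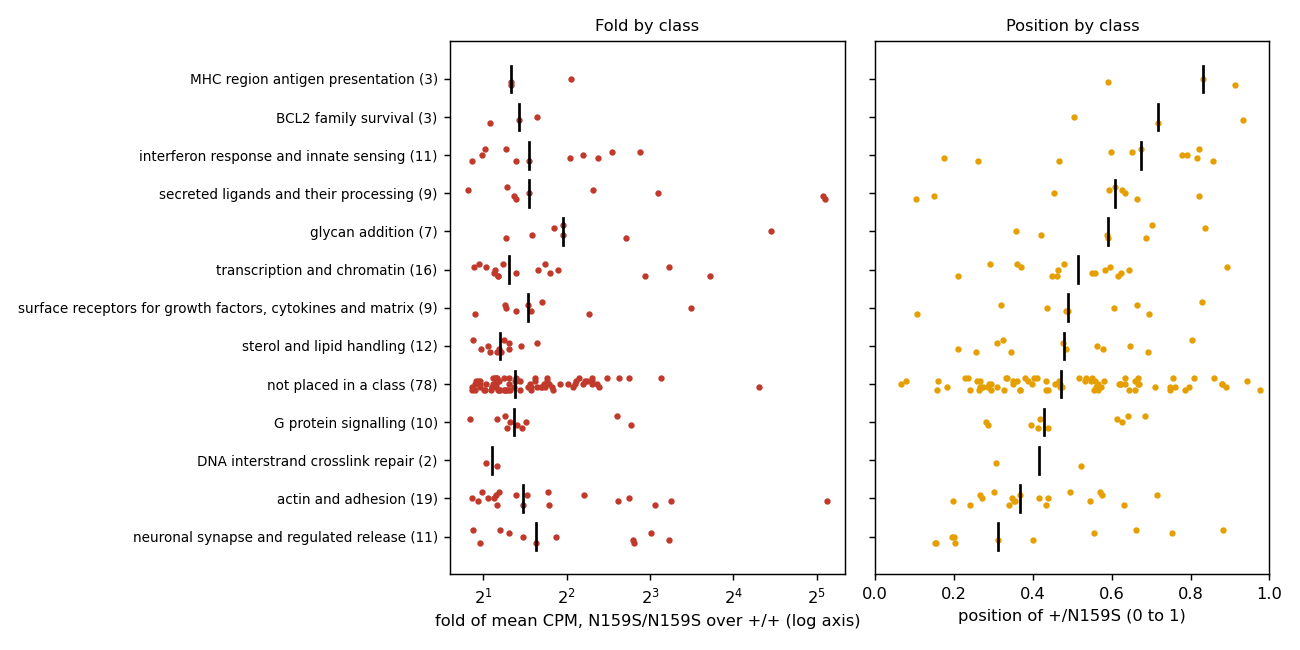
Fold of mean CPM, Ikzf3 N159S/N159S over Ikzf3 +/+ (left, log axis), and position of the Ikzf3 +/N159S mean between the other means (right, 0 to 1), 1 point per member by functional class, with the median as a bar and the number of members in brackets. The median position runs from 0.312 in the synapse and release class to 0.831 in the MHC region class.

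The position of +/N159S was measured as the part of the CPM difference between +/+ and N159S/N159S that its mean covered, 0 at +/+ and 1 at N159S/N159S. Since the rule admitted only values between 0 and 1, the median of 0.492 is a description of the chosen genes. The position was under 0.25 in 21 members, from 0.25 to 0.5 in 75, from 0.5 to 0.75 in 68, and 0.75 or more in 26. The 2 +/N159S libraries lay a median of 0.198 apart on this scale and stood on both sides of 0.5 in 57 members, so the position of a single member is often not fixed by the data. Libraries were stepwise without any overlap in 138 members, beside 3.87% of genes tested, a count that the rule partly fixes. In the other 52, a +/N159S library lay at or below the higher +/+ library in 14 and at or above the lower N159S/N159S library in 40, with 2 in both counts.

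**Figure D4:**
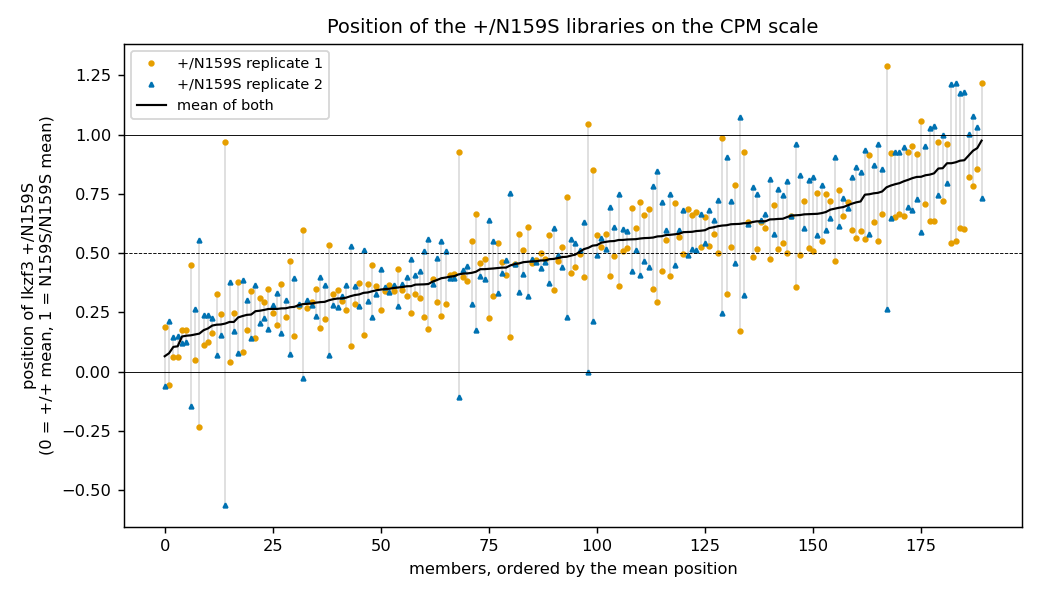
Position of each Ikzf3 +/N159S library (points) and of their mean (line) between the Ikzf3 +/+ mean at 0 and the Ikzf3 N159S/N159S mean at 1, for the 190 members ordered by the mean. The means climb from 0.065 to 0.975, and the grey bars that join the 2 libraries are long beside the step from one member to the next.

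The lowest positions were those of Rbpms, Akr1c12, Pcsk1, Acvr2b, Pdgfb and Unc13a, between 0.065 and 0.152. Rbpms, an RNA-binding protein, was at 0.684 and 1.58, 1.79 and 0.925, and 5.43 and 3.71 CPM, and Akr1c12, an aldo-keto reductase, at 3.85 and 2.83, 3.10 and 4.23, and 6.70 and 8.30 CPM. In both the +/N159S libraries overlapped with +/+. Pcsk1 had a position of 0.061 in +/N159S replicate 1 and 0.148 in replicate 2. The highest were those of Cryzl2, Tcf4, H2-DMa, Bcl2a1d, Nudt22 and Prodh, between 0.890 and 0.975. Tcf4, an E protein transcription factor, was at 9.05 and 12.4 CPM in +/N159S and at 11.1 and 11.6 CPM in N159S/N159S. Prodh, the mitochondrial proline dehydrogenase, was at 0.684 and 0.988, 2.86 and 2.05, and 2.37 and 2.62 CPM, Nudt22 at 3.76 and 3.69, 6.61 and 7.20, and 7.57 and 6.63 CPM, and Cryzl2 at 0.770 and 0.461, 1.49 and 2.31, and 2.08 and 2.04 CPM. In each a +/N159S library exceeded an N159S/N159S library. By class the median position was 0.312 in the synapse and release class, 0.368 in the actin class, 0.480 in the sterol and lipid class, 0.674 in the interferon class and 0.831 in the MHC region class. These class medians were not tested against each other, and the sex and B cell marker differences of the +/N159S libraries stand beside all of them.

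On the log2 scale the +/N159S level could be set against the midpoint of the other genotypes in the fit across all genes. It lay above the midpoint in 132 members and below it in 58. Above it, 2 members were called, beside 0.825% of genes tested. These were Oas1a (FDR = 0.0309) and H2-Q6 (FDR = 0.0101), both by edgeR's quasi-likelihood test. Below it, 0 members were called by edgeR and 0 by DESeq2, beside 0.206% of genes tested, 2 were at an unadjusted p under 0.05, and the lowest FDR among them was 0.386 by the same test. The rule used the +/N159S mean, so the counts describe the members and no more.

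The set held 178 protein-coding genes, 8 long non-coding RNAs, 2 transcribed pseudogenes, 1 miRNA gene and 1 snoRNA gene by RefSeq's classes. Firre, a long non-coding RNA on chromosome X, was at 8.21 and 9.22 CPM in +/+, 28.8 and 21.1 CPM in +/N159S, and 39.2 and 36.4 CPM in N159S/N159S libraries. The miRNA gene Mir6516 lies within Snhg20, so reads of the host transcript cannot be told apart from its own. In all, 44 members share exon sequence with another counted gene, and strand-specific counting is not stated.

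Chromosome 7 carried 27 members (14.2%), beside 7.87% of genes tested, chromosome 11 carried 19, and chromosome 1 carried 17 (8.95% beside 5.64%). There were 16 pairs of members whose genes lay within 100 kb of each other. No share for the genes tested stands beside this count, so no clustering is read from it. Besides the divergent pairs above, the pairs included the tandem neighbours Slfn4 and Slfn3, Casp1 and Casp4, and H2-Q5 and H2-Q6. They also included Unc13a, Insl3 and B3gnt3 on chromosome 8, where the counts of Insl3 are uncertain, and Pcdhgb6 and Pcdhgb7, which overlap each other. Bivm was at 9.15 and 8.89 CPM in +/+, 14.7 and 16.3 CPM in +/N159S, and 16.8 and 18.2 CPM in N159S/N159S libraries, and like Poglut2 had +/N159S nearer to N159S/N159S. Cep290, a centrosomal protein of cilia, was at 3.85 and 4.15, 11.6 and 11.2, and 23.0 and 21.6 CPM, and its partner Tmtc3, an enzyme of protein O-mannosylation, at 3.08 and 2.70, 7.03 and 8.59, and 9.82 and 12.7 CPM.

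Another 7 members shared a divergent start region of at most 1 kb with a tested gene outside the set. Of these 7 partners, 0 were called in either direction by edgeR's quasi-likelihood test, beside 5.26% of genes tested, with FDRs from 0.213 to 0.697. DESeq2 called 0, and 2 were higher at an unadjusted p under 0.05 in edgeR. Their log2 fold changes in N159S/N159S were all above 0, with a median of 0.28. Sqstm1, which starts 63 bp from Mgat4b, was at 213 and 207 CPM in +/+ and at 234 and 238 CPM in N159S/N159S libraries, while Mgat4b, an N-glycan branching enzyme, was at 2.91 and 3.62 CPM and at 13.5 and 10.1 CPM. Emc3, which starts 30 bp from Fancd2, was at 41.1 and 42.3 CPM in +/+ and at 45.0 and 45.4 CPM in N159S/N159S libraries.

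Relatives of 4 members were read from lists of gene families. Among the other proprotein convertases and their partners, 6 were tested besides Pcsk1 and 0 were called in N159S/N159S by edgeR's quasi-likelihood test, beside 5.26% of genes tested. Furin was at 46.3 and 46.8 CPM in +/+ and 50.01 and 58.1 CPM in N159S/N159S, Pcsk7 at 71.5 and 82.2 CPM and 74.6 and 70.2 CPM, and Cpe, the carboxypeptidase that follows Pcsk1 in prohormone processing, stayed under 0.4 CPM throughout. Of the PDGF and VEGF family, 4 were tested besides Pdgfb and 0 were called, and both PDGF receptor genes were at or under 0.428 CPM in every library. Of 5 tested relatives and partners of Synpo, 0 were called. DESeq2 called 0 in these 3 lists, and at an unadjusted p under 0.05 in edgeR there were 0, 0 and 1 (lower) in the same order.

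Among 16 tested early response genes besides Ier5l, 0 were called higher and 2 lower in N159S/N159S by edgeR and by DESeq2, beside 5.26% of genes tested called in either direction, and 2 were higher and 5 lower at an unadjusted p under 0.05 in edgeR. Dusp2, a nuclear phosphatase of MAP kinases, was at 393 and 390 CPM in +/+, 245 and 191 CPM in +/N159S, and 239 and 221 CPM in N159S/N159S (FDR = 0.00374 by edgeR's quasi-likelihood test). Nr4a3, an orphan nuclear receptor, was at 43.8 and 36.9, 25.3 and 30.8, and 21.7 and 23.1 CPM (FDR = 0.00438 by the same edgeR test). Ier5, the closest relative of Ier5l by name, was at 398 and 406 CPM in +/+ and 456 and 405 CPM in N159S/N159S, with an FDR of 0.699 by that test. Over all 31 tested relatives, the median log2 fold changes of the 4 lists lay between -0.14 and 0.19, beside 0.00 over all genes tested.

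**Figure D5:**
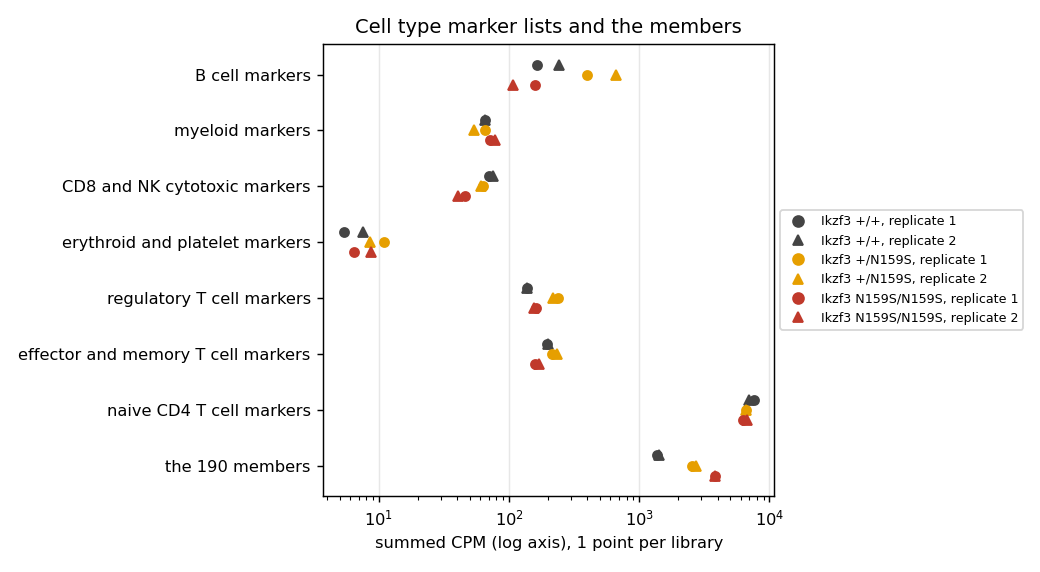
Summed CPM on a log axis of 7 lists of cell type markers and of the 190 members, 1 point per library, colour for genotype and shape for replicate number. The members separate the 3 genotypes in order, B cell markers are highest in Ikzf3 +/N159S and lowest in Ikzf3 N159S/N159S, and myeloid markers stay between 53.4 and 77.4 CPM.

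In summed CPM, none of these 7 lists stepped upward with the alleles as the members did. Regulatory T cell markers summed to 138 and 138 CPM in +/+, 240 and 216 CPM in +/N159S, and 160 and 155 CPM in N159S/N159S libraries, effector and memory markers to 197 and 198, 215 and 233, and 158 and 170 CPM, and CD8 and natural killer markers to 70.5 and 74.98, 63.4 and 61.3, and 46.1 and 40.6 CPM. Single markers in these 3 lists went different ways at an FDR under 0.05 in edgeR's quasi-likelihood test against +/+. Capg was higher in both mutant genotypes, and Ikzf2 and Cxcr3 were higher in +/N159S. Il2rb, Icos and Cd8b1 were lower in N159S/N159S, beside 5.26% of genes tested called there in either direction. Erythroid and platelet markers summed to at most 10.96 CPM, with 5 of 9 at 0 reads in all libraries. Of the 11 myeloid markers, 0 were called in either direction in N159S/N159S by edgeR or DESeq2, but 8 had a log2 fold change above 0, 5 of them at an unadjusted p under 0.05 in edgeR, and 1 was lower at that p. Their median log2 fold change was 0.60, beside 0.00 over all genes tested. The summed level was 65.9 and 65.6 CPM in +/+, 65.4 and 53.4 CPM in +/N159S, and 71.9 and 77.4 CPM in N159S/N159S libraries, and their part in the members' values was not tested.

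At the limits of the rule, Fanci, Tusc1, Il18r1, Lif and Lgals1 were just inside with ratios of 1.701 to 1.706 between the lower N159S/N159S and the higher +/+ library, and Gnaq, Pard6g, Zbtb42, Chst15 and Kif23 just outside with 1.68 to 1.69. Cryzl2 and Cnrip1 were just inside the CPM floor at 2.04 CPM, and Bcam and P2ry1 just outside it at 1.97 CPM.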

How the data were processed

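The authors trimmed the reads (Trimmomatic), aligned them to mm10 with HISAT2 2.2.1 and counted them per gene with HTSeq 2.0.2 on refGene; the deposited values are raw read counts per gene. Between 50.7% and 57.7% of each library's entries were on genes, and rows of uncounted reads were left out of totals. CPM was computed as count over total on genes. Members and gene lists were chosen with earlier results of these data known. The text names the 4 genes given with the rule, the 15 members with the largest ratio, the 10 highest in CPM, and 6 each of lowest, highest and most central position; further members illustrate their class and were chosen after their values were seen. Tests were edgeR 4.0.16 quasi-likelihood fits (R 4.3.3) over 12117 genes after filterByExpr, all 6 libraries, TMM scaling, no block; DESeq2 1.42.0 was an alternative. The code was tested on simulated data. With 2 libraries a genotype, a two-sided permutation test cannot go below 0.333, and p-values measure only the spread between these libraries. Exon lengths and neighbours came from GENCODE, names and promoter windows from RefSeq; for genes with several windows, the one nearest the gene's 5′ end was used. Libraries of sorted B cells were not analysed here, and some named genes are not reported here.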

Additional observations from a re-analysis of the deposited data

How the results depend on the processing

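The number of members, 190, was 117 with a fold of 2 and 122 with a floor of 5 CPM, and ran from 179 to 275 when each library in turn was left out. The median position of 0.492 was 0.610 on the log2(CPM + 0.5) scale and 0.461 with TMM-scaled libraries, and ran from 0.484 to 0.510 with a library left out. Without a filter on low counts, calls of +/N159S against +/+ went from 212 to 542, departures from the midpoint from 125 to 339 and relatives called from 2 to 5. With a library left out, the lone one being assumed to vary like the other groups, calls ran from 221 to 751 of 637 (N159S/N159S against +/+, lowest without +/+ replicate 2), from 68 to 250 of 212, from 66 to 117 of 125, and from 2 to 3 of 2.

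Replicate numbers did not line up across all genotypes. The differences between replicates 1 and 2 correlated across genes at -0.167 (+/+ and +/N159S), -0.216 (+/+ and N159S/N159S) and 0.238 (+/N159S and N159S/N159S). Between the mutant genotypes they thus went the same way, and in +/+ the opposite way. A fit with the replicate block called 514, 170, 120 and 2 in the same order. A crossed block, chosen after seeing the data, called 1756, 1422, 737 and 9; it puts the libraries with more genes detected together. Low counts limit the 14 members with fewer than 10 reads in both +/+ libraries.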

Other observations

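Another 20 genes met the +/+ and N159S/N159S conditions of the rule but not the +/N159S condition. In 19 of them the +/N159S mean lay above the N159S/N159S mean, and in Lrrc6 it lay below the +/+ mean. Mdfic, an inhibitor of MyoD family proteins by name, was at 2.65 and 2.83 CPM in +/+, 8.34 and 9.91 CPM in +/N159S, and 5.601 and 5.54 CPM in N159S/N159S libraries. Hip1r, a clathrin and actin adaptor, was at 21.1 and 22.3, 41.2 and 46.4, and 39.6 and 37.9 CPM. These 2, named after their values were seen, were the ones of the 20 called above the midpoint (FDR = 0.0116 and 0.0255 by edgeR's quasi-likelihood test). The mirrored rule, for genes lower with each N159S allele, gave 91 genes, and 102 genes without its +/N159S condition.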
